A study of Gallus gallus with 4 samples.

Results

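The proteasome and ubiquitin-conjugating enzyme genes were followed here in chorioretinal tissue (retina with the choroid behind it) of chicks. Members were the genes whose symbol is PSMA, PSMB, PSMC, PSMD, PSME or PSMG with a number, or UBE2 with a letter. The reference annotation holds 70 such symbols, and probes matched 43 of them through the RefSeq accession printed on the array, out of 4807 named genes measured. The 43 comprise 10 genes of the 20S core, 17 regulatory and assembly genes and 16 E2 enzymes. All 43 had a probe well above background on all 4 arrays, and none of the matched genes was lost to that filter. The other 27 symbols had no matched probe and were not analysed here. They included PSMB2, PSMB3 and PSMB4 of the core, PSMC5, PSMD6, PSMD7, PSMD11, PSMD13, PSME1, PSMG2 and PSMG4 of the regulatory and assembly genes, and UBE2B, UBE2D2, UBE2E1, UBE2E2, UBE2J2, UBE2L6, UBE2M, UBE2O, UBE2Q1, UBE2Q2, UBE2QL1, UBE2R2L, UBE2T, UBE2U and UBE2Z of the E2 enzymes.

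The proteasome is the barrel-shaped protease that degrades proteins marked with ubiquitin. Its 20S core is built of alpha rings, which gate the entrance, and beta rings, which hold the proteolytic sites. A 19S regulatory particle of PSMC ATPases and PSMD subunits recognises, unfolds and feeds in the substrates. Ubiquitin reaches a substrate through an E1 activating enzyme, an E2 conjugating enzyme and an E3 ligase, and the E2 largely sets which kind of ubiquitin chain is made. In photoreceptors this system is known for the disposal of misfolded proteins and the turnover of signalling proteins.

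Each chick wore a glass goggle over the right eye, which induces myopia, while the left eye stayed uncovered as its control. Goggles went on 6 days after hatching and stayed for 7 days in cycles with 12 hours of light, either normal or violet, and eyes were taken on day 13. The design counts 16 eyes of 8 chicks in 4 groups, namely uncovered eyes in normal light, uncovered eyes in violet light, covered eyes in normal light and covered eyes in violet light. RNA of the 4 eyes of a group was mixed into 1 pool, taken from buttons 6 mm wide temporal to the optic nerve, and read on 1 array. Both eyes of a chick share the light, so the lights separate 2 sets of chicks, and no strain or sex is given in the sources used here. With 1 pool per group no difference has a replicate check, no p-value was computed, and the number of arrays limits the precision. In pooled tissue, fewer cells of a type and less RNA per cell cannot be told apart.

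Between 83.1% and 86.0% of probes were well above background on each array, and no spot was saturated. The array of uncovered eyes in normal light correlated least with the other arrays across passing probes (0.977 to 0.988, against 0.990 to 0.994 among the others). Scanner files and the authors' value table cross the labels of that array and of the array of covered eyes in violet light. The table's column for uncovered eyes in normal light correlated at 0.9992 with the scanner file of covered violet light and at 0.981 with its own. Values here follow the scanner files, and the pair of covered normal light against uncovered violet light is added because both sources label it alike. The pools of that pair differ in goggle, light and set of chicks at once, so it gives neither difference alone. Levels of the cell marker lists are medians, as log2 signal above the array's 75th percentile. The neuron list (5 of 8 measured) was at 4.64 and 4.88 in the uncovered and at 4.87 and 4.95 in the covered pools of normal and violet light. Of its 5 genes, 4 and 5 were higher in covered eyes, with median goggle differences of 0.49 and 0.11. The photoreceptor list (10 of 14) was at 3.86 and 4.08 in the uncovered and at 3.54 and 3.62 in the covered pools of normal and violet light, with 7 of 10 genes lower in covered eyes in each light. The retinal pigment epithelium list (7 of 9) was at 2.15 and 2.20 in the uncovered and at 2.77 and 2.64 in the covered pools, with 6 and 4 of 7 genes higher in covered eyes. The endothelium list (6 of 9) was at -2.59 and -2.31 in the uncovered and covered pools of normal light and at -4.03 and -4.06 in those of violet light. The fibroblast list (8 of 10) was at 0.58 and 0.82 in normal light and at -0.41 and -0.68 in violet light. The striated muscle list (11 of 17) was at -3.45 and -3.72 in the uncovered pools of normal and violet light and at 1.47 and -2.05 in the covered ones. The lens list (12 of 14) was at -3.06 and -0.16 in the uncovered and at -1.48 and -2.03 in the covered pools of normal and violet light. The interferon list (7 of 13) was at -0.18 in uncovered eyes in normal light and between -3.02 and -2.20 in the other pools. The part of these lists in the differences below was not tested.

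The first question was how far the proteasome and E2 genes differed between covered and uncovered eyes. Each gene was counted by its brightest probe. Under normal light 2 of 43 members were at least 1.5-fold higher in covered eyes, where 12.1% of all genes were, and none was 1.5-fold lower, where 6.53% of all genes were. At least 2-fold apart was 1 member higher, PSME4, and none lower, where 4.68% and 1.41% of all genes were. After quantile normalization 3 members were at least 1.5-fold higher (PSMB5, PSMD2 and PSME4) and none lower, where 7.99% and 11% of all genes were. Those past 1.5-fold before it were PSME4, which encodes the proteasome activator PA200, and PSMD2, the scaffold subunit at the base of the 19S particle. Under normal light other probes of PSME3 (0.65 and 0.64), PSMD1 (0.62) and UBE2W (1.24) also passed 1.5-fold. Past 2-fold were that UBE2W probe and other probes of PSMD2 (1.07 and 1.23), whereas the other PSME4 probe was at 0.20. Under violet light no member reached 1.5-fold in either direction, where 2.14% of all genes were higher and 1.69% lower. Counting by sign alone, 17 members were higher and 26 lower under normal light, where 51.9% and 48.1% of all genes were. Under violet light 27 were higher and 16 lower, near the 58.9% and 41.1% of all genes. Across the 43 members the SD of the goggle difference was 0.33 under normal and 0.15 under violet light, against 0.57 and 0.30 across all 4807 genes. The SD of a difference between 2 single spots, taken from 31 probes repeated within each array, was 0.10. It holds no error between arrays or between pools. The probes of one member differed from each other with a median SD of 0.17 under normal and 0.10 under violet light.

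The second question was how far they differed between violet and normal light. By its brightest probe, no member reached 1.5-fold in uncovered eyes, where 5.03% of all genes were higher and 4.95% lower under violet light. Other probes of PSMD2 (0.74 and 0.69) and of UBE2W (0.99) did pass it. The brightest UBE2W probe was at -0.16. By sign, 20 members were higher and 23 lower there, where 48.6% and 51.4% of all genes were. None reached 1.5-fold in covered eyes either, where 0.853% were higher and 4.56% lower. In covered eyes the 43 differences lay between -0.07 and 0.38, with an SD of 0.08, against 0.36 across all 4807 genes. Between covered eyes in normal light and uncovered eyes in violet light, the pair with undisputed labels, no member reached 1.5-fold, against 6.1% of all genes higher and 2% lower. This too holds for the brightest probe, and another probe of UBE2V2 was at -0.63 there. In that pair the differences lay between -0.33 and 0.45, with 22 members higher and 21 lower, where 54.3% and 45.7% of all genes were.

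The members were mostly bright genes, and 41 of the 43 have a probe brighter than the median passing probe. Among the 3412 genes with such a probe, goggles under normal light left 5.86% past 1.5-fold upwards and 5.45% downwards, against 1 member upwards, PSMD2. The interquartile range of that difference was 0.39 for the bright members and 0.46 for all bright genes. Under violet light it was 0.21 and 0.24.

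**Figure D1:**
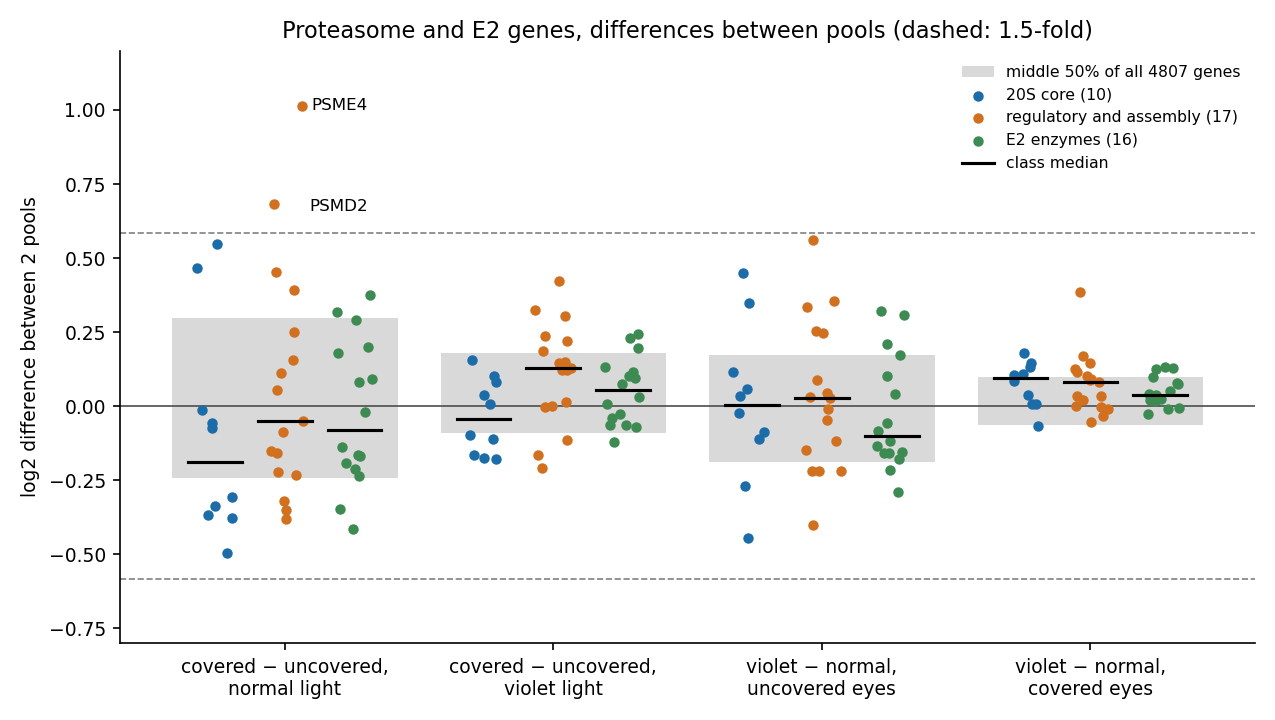
Log2 differences of the 43 members in 4 pairs of pools. Each point is 1 gene (its brightest passing probe), black bars are class medians, grey bands hold the middle 50% of all 4807 genes, and dashed lines mark 1.5-fold. PSME4 (1.01) and PSMD2 (0.68) lie outside the dashed lines, both for goggles under normal light, and the points for light in covered eyes lie closest together.

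Of the 20S core, 8 of 10 members were lower in covered eyes under normal light, where 48.1% of all genes were lower. The core median was -0.19, against 0.02 over all genes. All 7 alpha-ring genes were on the low side, with a median of -0.34, whereas 2 of the 3 beta-ring genes were higher, with a median of 0.47. PSMA3 counted as low at -0.01. The 2 medians are the values of PSMA1 and PSMB7, which have 1 passing probe each. After quantile normalization the alpha and beta medians were -0.33 and 0.49, and the core median -0.17 against -0.05 over all genes. Under violet light 5 of 10 core members were lower, where 41.1% of all genes were, with alpha and beta medians of -0.11 and 0.10 (-0.12 and 0.08 after quantile normalization).

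PSMA7, an alpha-ring subunit, had levels of 2.24 in uncovered eyes in normal light, 1.79 in uncovered eyes in violet light, 1.74 in covered eyes in normal light and 1.87 in covered eyes in violet light. It was high in 1 pool and within 0.13 in the other 3, giving a goggle difference of -0.50 under normal and 0.08 under violet light. PSMA4, another alpha-ring gene, had levels of 3.06, 2.79, 2.68 and 2.61 in the same order of pools. Its goggle difference was -0.38 and -0.17, so that both covered pools were below both uncovered ones. Its other 2 probes gave 0.08 and -0.10 under normal light, where the mean of the 3 was -0.13. PSMA1 (4.06, 3.97, 3.72 and 3.81), PSMA2 (2.73, 2.71, 2.43 and 2.53) and PSMA5 (3.12, 3.01, 2.75 and 2.90) were arranged alike, with goggle differences of -0.34, -0.31 and -0.37 under normal and -0.17, -0.18 and -0.11 under violet light. PSMA6 differed by -0.07 and -0.10, and PSMA3, at -0.01 and 0.04, lay near 0 in both lights.

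PSMB5, the catalytic subunit of the chymotrypsin-like site, had levels of 1.60, 2.05, 2.15 and 2.15 in the same order. It was low in uncovered eyes in normal light alone, and its difference of 0.55 under normal light became 0.10 under violet light. The value was 0.60 after quantile normalization, past 1.5-fold. PSMB7, the catalytic subunit of the trypsin-like site, was at 2.93, 3.27, 3.39 and 3.43, with differences of 0.47 and 0.16. PSMB1, a beta subunit without a proteolytic site, lay at 2.57, 2.68, 2.51 and 2.69, with differences of -0.06 and 0.01. Its other probe gave 0.56 and 0.35, and the mean of both was 0.25 and 0.18.

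For light, the core median was 0.00 for uncovered and 0.10 for covered eyes. In uncovered eyes PSMB5 (0.45), PSMB7 (0.35) and PSMB1 (0.11) were the highest and PSMA7 (-0.45), PSMA4 (-0.27) and PSMA5 (-0.11) the lowest. The other probes of PSMB5 (0.34) and PSMB1 (0.19) were also higher, whereas those of PSMA4 (0.142 and 0.002) and PSMA5 (0.007) were not lower. This comparison shares the array of uncovered eyes in normal light with the goggle comparison in normal light, so the matching order of genes is no separate evidence. In covered eyes, which do not involve that array, PSMB1 (0.18), PSMA5 (0.15) and PSMA7 (0.13) were the highest, and PSMA4 (-0.07), PSMB5 and PSMA6 (0.01 each) the lowest. Other probes there gave -0.02 for PSMB1, 0.16 for PSMA5, -0.12 and -0.07 for PSMA4, 0.02 for PSMB5, and -0.02 and 0.11 for PSMA6. After quantile normalization the core medians for light were -0.02 and 0.03.

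**Figure D2:**
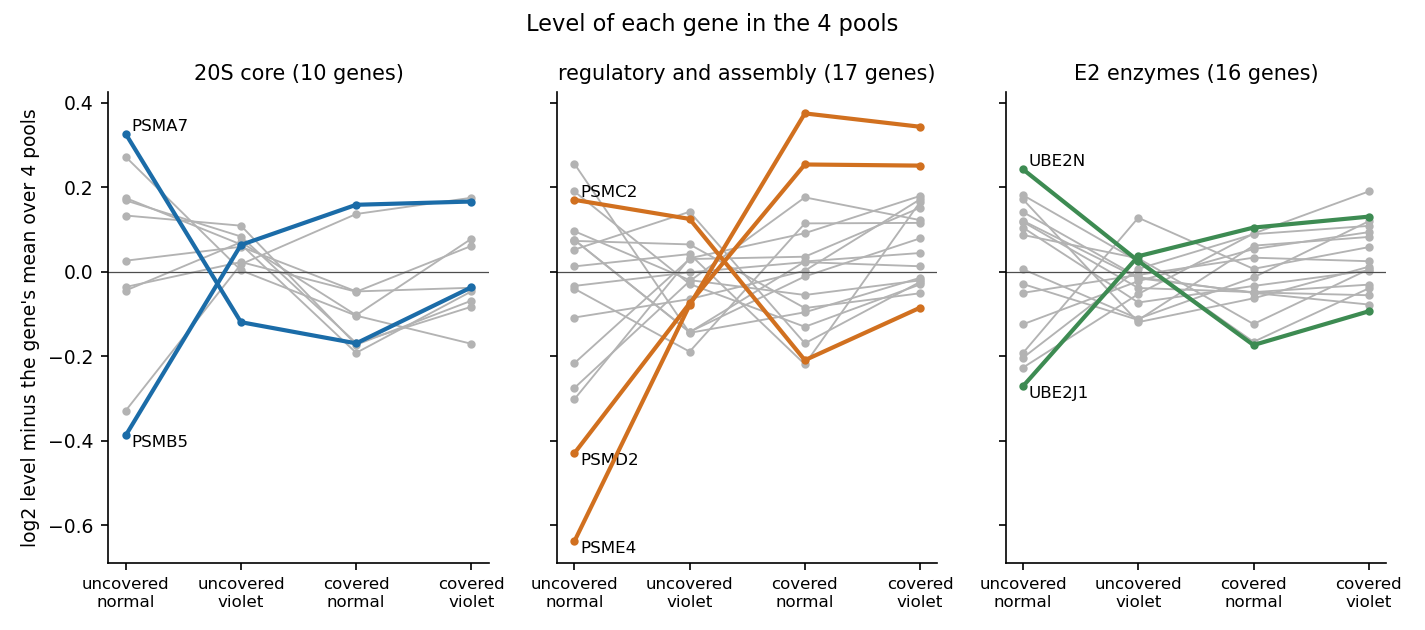
Level of each member in the 4 pools, as log2 signal minus the gene's own mean over the pools, in 3 panels by class. Each line joins the 4 values of 1 gene and has no meaning as an order, and coloured lines are labelled genes. The widest spread in each panel is at uncovered eyes in normal light, where PSMA7 and UBE2N are high and PSMB5, PSMD2 and PSME4 low.

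Among the regulatory and assembly genes, 8 of 17 were higher and 9 lower in covered eyes under normal light, close to the 51.9% and 48.1% of all genes, and the median was -0.05. Under violet light 12 of 17 were higher, where 58.9% of all genes were, with a median of 0.13 against 0.05 over all genes. After quantile normalization the medians were 0.00 and 0.12, against -0.05 and 0.00 over all genes.

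PSME4 (accession NM_001006393) had levels of -2.67 in uncovered eyes in normal light, -2.11 in uncovered eyes in violet light, -1.66 in covered eyes in normal light and -1.69 in covered eyes in violet light. Both covered pools were above both uncovered pools, with goggle differences of 1.01 (2.02-fold) and 0.42. The probe was dim, with processed signals of 328, 304, 251 and 271 before scaling. The 75th percentiles subtracted correspond to signals of 2095, 1317, 793 and 876, so the differences of this gene and of PSMD2 both rest on the scaling. The difference under normal light was 0.72 after quantile normalization, and its 2 probes gave 1.01 and 0.20 there, and 0.42 and 0.01 under violet light. PSMD2 (accession NM_001012934) had levels of 2.48, 2.84, 3.16 and 3.16 in the same order, again with both covered pools highest. Its processed signals before scaling were 11690, 9399, 7110 and 7835, in which the covered pools were lowest, as they were for PSME4. Its goggle differences were 0.68 (1.61-fold) and 0.33, or 0.73 and 0.32 after quantile normalization. All 5 of its probes were higher in covered eyes, by 0.33 to 1.23 under normal and by 0.16 to 0.43 under violet light.

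Of the 4 measured ATPases, part of the ring that unfolds substrates, 3 were lower under normal light, where 48.1% of all genes were. PSMC2 had levels of 3.67, 3.62, 3.29 and 3.41 in the order above, and PSMC3 of 1.82, 1.91, 1.60 and 1.75. Both covered pools were below both uncovered pools in each, with goggle differences of -0.38 and -0.21 for PSMC2 and of -0.22 and -0.17 for PSMC3. PSMC1, in contrast, was at 4.07, 4.40, 4.46 and 4.55, with differences of 0.39 and 0.15. PSMC6 was at 2.15, 2.18, 1.92 and 2.31, lowest in covered eyes in normal light. Its goggle difference was -0.23 under normal and 0.12 under violet light.

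Other PSMD genes with differences near the ends of the range included PSMD3, a lid subunit, at 0.45 and 0.14, and PSMD9, a chaperone of base assembly, at -0.32 and -0.00. PSMD1, a scaffold partner of PSMD2 in the base, differed by -0.16 and -0.12. PSMD14, the deubiquitinase of the lid, was at 1.68, 1.73, 1.79 and 1.96, with differences of 0.11 and 0.24. PSMD4, a ubiquitin receptor, differed by 0.25 and 0.12, PSMD12, a lid subunit, by -0.15 and -0.00, and PSMD10, an assembly chaperone also called gankyrin, by -0.09 and 0.22. PSMD5, a further assembly chaperone, had the smallest range over the 4 pools of all members, 0.06. The nuclear activator gene PSME3 differed by -0.05 and 0.19. Its other 3 probes gave 0.65, 0.20 and 0.64 under normal light, and the mean of its 4 probes was 0.36. Of the chaperones of core assembly, PSMG3 was at 0.67, 0.27, 0.31 and 0.40 (-0.35 and 0.13), and PSMG1 at 0.20, 0.05, 0.35 and 0.35 (0.15 and 0.30).

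For light, the regulatory and assembly median was 0.03 for uncovered and 0.08 for covered eyes (0.05 and 0.01 after quantile normalization). In uncovered eyes the ends of the range were PSME4 (0.56), PSMD2 (0.36) and PSMC1 (0.33), and PSMG3 (-0.40) followed by PSMD9, PSME3 and PSMD10 (-0.22 each). The other 3 PSME3 probes were higher there, by 0.06 to 0.43, and the mean of its 4 probes was 0.17. In covered eyes PSMC6 was the highest of all 43 members under violet light (0.38, and 0.35 after quantile normalization). Its 2 probes gave 0.38 and 0.32, and the spread between pools of one group was not measured. PSMD14 (0.17) and PSMC3 (0.15) followed, and PSMD3 (-0.05), PSME4 (-0.03) and PSMD5 (-0.01) were lowest. These ranks rest on the brightest probe. Other probes of PSMC3 lay between -0.001 and 0.05, and those of PSMD3 between 0.02 and 0.06. Those of PSMD5 gave -0.04 and 0.09, and the other PSME4 probe 0.01.

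**Figure D3:**
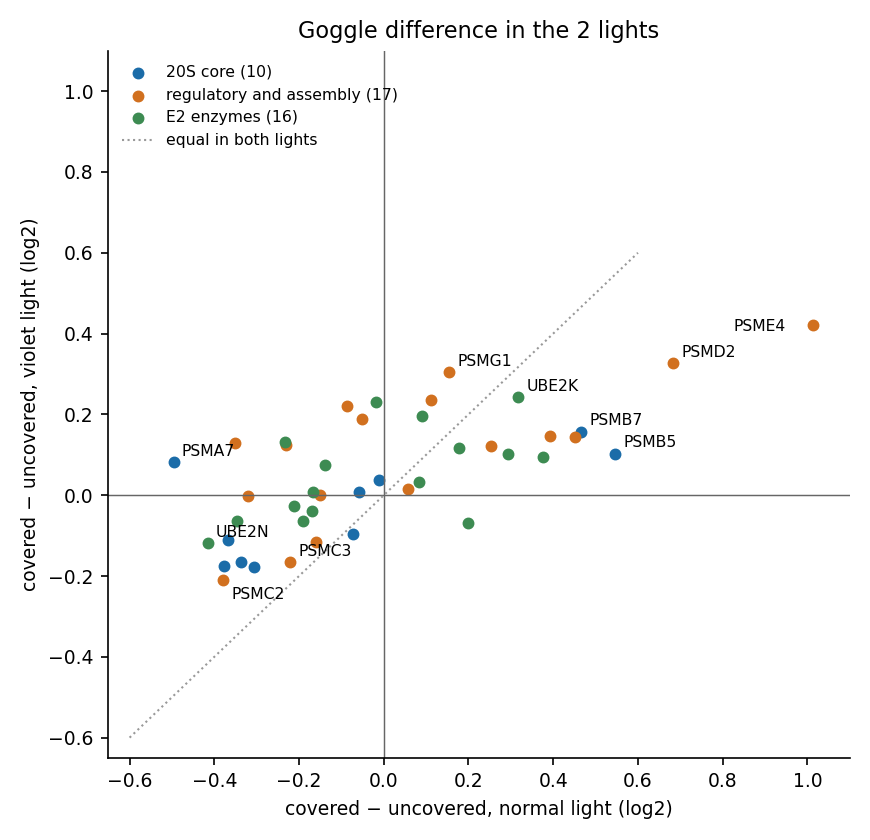
Goggle difference of each member under normal light (horizontal axis) and violet light (vertical axis), both as log2. Each point is 1 gene coloured by class, and the dotted line marks equal differences. PSME4 and PSMD2 lie farthest to the upper right, PSMC2 is lowest under violet light, and PSMA7 is low under normal light alone.

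Among the E2 enzymes, 7 of 16 were higher and 9 lower in covered eyes under normal light, where 51.9% and 48.1% of all genes were. Under violet light 10 were higher, where 58.9% of all genes were. The E2 medians were -0.08 and 0.05, against 0.02 and 0.05 over all genes. After quantile normalization they were -0.03 and 0.02, against -0.05 and 0.00 over all genes. Relative to all genes the median under normal light thus changed sign with the scaling, from -0.10 to 0.02. No E2 gene ranged over more than 0.42 across the 4 pools. The median range was 0.22 for the E2 genes, 0.35 for the core, 0.32 for the regulatory and assembly genes and 0.36 for all genes.

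UBE2N, which builds ubiquitin chains used in signalling rather than degradation, had levels of 3.27 in uncovered eyes in normal light, 3.05 in uncovered eyes in violet light, 2.85 in covered eyes in normal light and 2.93 in covered eyes in violet light. Both covered pools were below both uncovered ones, with differences of -0.42 and -0.12. Its cofactors, the catalytically inactive variants UBE2V1 and UBE2V2, differed by -0.17 and -0.04 and by 0.20 and -0.07. Under normal light their other probes had the opposite sign. Those of UBE2V1 gave 0.45 and 0.32, and the mean of its 3 probes was 0.20. Those of UBE2V2 gave -0.13, -0.26 and -0.42, and the mean of its 4 probes was -0.15. UBE2F, an E2 for the ubiquitin-like protein NEDD8, was at 2.78, 2.62, 2.43 and 2.56, with differences of -0.35 and -0.06. UBE2K, which extends degradation-signal chains, was at 2.02, 2.19, 2.34 and 2.44, with both covered pools highest and differences of 0.32 and 0.24.

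UBE2J1, a membrane-bound E2 of the endoplasmic reticulum, was a dim probe with levels of -2.27, -1.96, -1.89 and -1.87. Its difference of 0.38 under normal light was 0.12 after quantile normalization. Of the cytosolic E2 enzymes for degradation at the endoplasmic reticulum, UBE2G1 differed by -0.23 and 0.13 and UBE2G2 by -0.02 and 0.23. UBE2L3, the partner of RING-between-RING ligases such as parkin, differed by 0.29 and 0.10. Of the broadly acting E2 enzymes, UBE2D1 differed by -0.14 and 0.08, UBE2D3 by 0.09 and 0.20 and UBE2E3 by -0.21 and -0.03. The ligase partner UBE2R2 differed by 0.18 and 0.12, the DNA damage tolerance gene UBE2A by -0.19 and -0.06, and UBE2W, which modifies protein N-termini, by -0.17 and 0.01. UBE2H was at 3.56, 3.60, 3.64 and 3.63, a range of 0.08.

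For light, the E2 median was -0.10 for uncovered and 0.04 for covered eyes (-0.09 and 0.02 after quantile normalization). In uncovered eyes UBE2V2 (0.32), UBE2J1 (0.31) and UBE2L3 (0.21) were highest, and UBE2G1 (-0.29), UBE2N (-0.22) and UBE2D1 (-0.18) lowest. This order depends on the probe. By the mean of passing probes UBE2V2 was at 0.13, UBE2G1 at -0.08 and UBE2W at 0.42, the last against -0.16 by its brightest probe. UBE2J1 was at 0.16 after quantile normalization. In covered eyes all 16 lay between -0.03 and 0.13, from UBE2A to UBE2G2, UBE2E3 and UBE2F.

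Over all classes, 16 of 43 members (37.2%) were higher in covered eyes in both lights, where 42.7% of all genes were, and 15 (34.9%) were lower in both, where 31.9% were. Both shares were near the background, and they were 17 and 16 members after quantile normalization, where 36.2% and 39.6% of all genes were. No member was at least 1.5-fold apart in the same direction in both lights, where 1.5% of all genes were higher and 0.978% lower. Under violet light 15 members were higher in both eyes, where 30.7% of all genes were, and 3 (PSMA4, UBE2A and UBE2V1) were lower in both, where 22.6% were. These became 10 and 9 after quantile normalization, where 25.1% and 26.7% of all genes were. In covered eyes alone 35 of 43 members were higher under violet light, where 59.6% of all genes were, and 8 were lower, where 40.4% were. After quantile normalization these were 25 and 18, where 54.7% and 45% of all genes were. The member median was 0.05, and 0.02 after quantile normalization.

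Across the 4 pools, 2 of 43 members ranged over at least 1.5-fold and 1 over at least 2-fold, where 26.3% and 9.59% of all genes did. The 4 pools did not contribute evenly. The uncovered pool in normal light held the highest or the lowest of the 4 levels for 34 of 43 members, where it did for 74.6% of all genes. It was the highest pool for 19 members and the lowest for 15, where it was for 36.3% and 38.4% of all genes. Covered eyes in normal light were the lowest pool for 17 members, where they were for 27.7% of all genes, and covered eyes in violet light were the highest for 16, where they were for 28.8%.

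Different probes of a gene gave a further measure of error. Of the 43 members, 34 had at least 2 passing probes. For goggles under normal light, every probe was higher for 8 of these and lower for 9, where 30.6% and 18% of all such genes were. Under normal light, the probes of 17 of these lay on both sides of 0 for goggles, where those of 51.5% of all such genes did. They were PSMA2, PSMA4, PSMA6, PSMB1, PSMD1, PSMD3, PSMD9, PSME3, PSMG1, UBE2G1, UBE2G2, UBE2H, UBE2N, UBE2R2, UBE2V1, UBE2V2 and UBE2W. The 5 probes of PSMA2 ranged from -0.43 to 0.24, those of PSMD1 from -0.56 to 0.62, of PSMD3 from -0.34 to 0.53, of UBE2N from -0.47 to 0.07 and of UBE2W from -0.17 to 1.24. Of the 17 alpha-ring probes, 14 were lower and 3 higher, and of the 5 beta-ring probes 4 were higher. These probes come from only 7 and 3 genes, with 5 of the 17 from PSMA2. The share over all probes was not computed. Every probe was higher in covered eyes in both lights for PSMB5, PSMC1, PSMD2, PSME4, UBE2K and UBE2L3, where this held for 21.7% of all such genes. Every probe was lower in both lights for PSMA5, PSMC2, PSMC3 and UBE2F, where this held for 10.1%. Both counts, 6 and 4 of 34, were near the background shares. Violet light gave every probe higher in both eyes for PSMA3, PSMB5, UBE2K and UBE2R2, against 13% of all such genes, and every probe lower for none, against 7.49%.

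**Figure D4:**
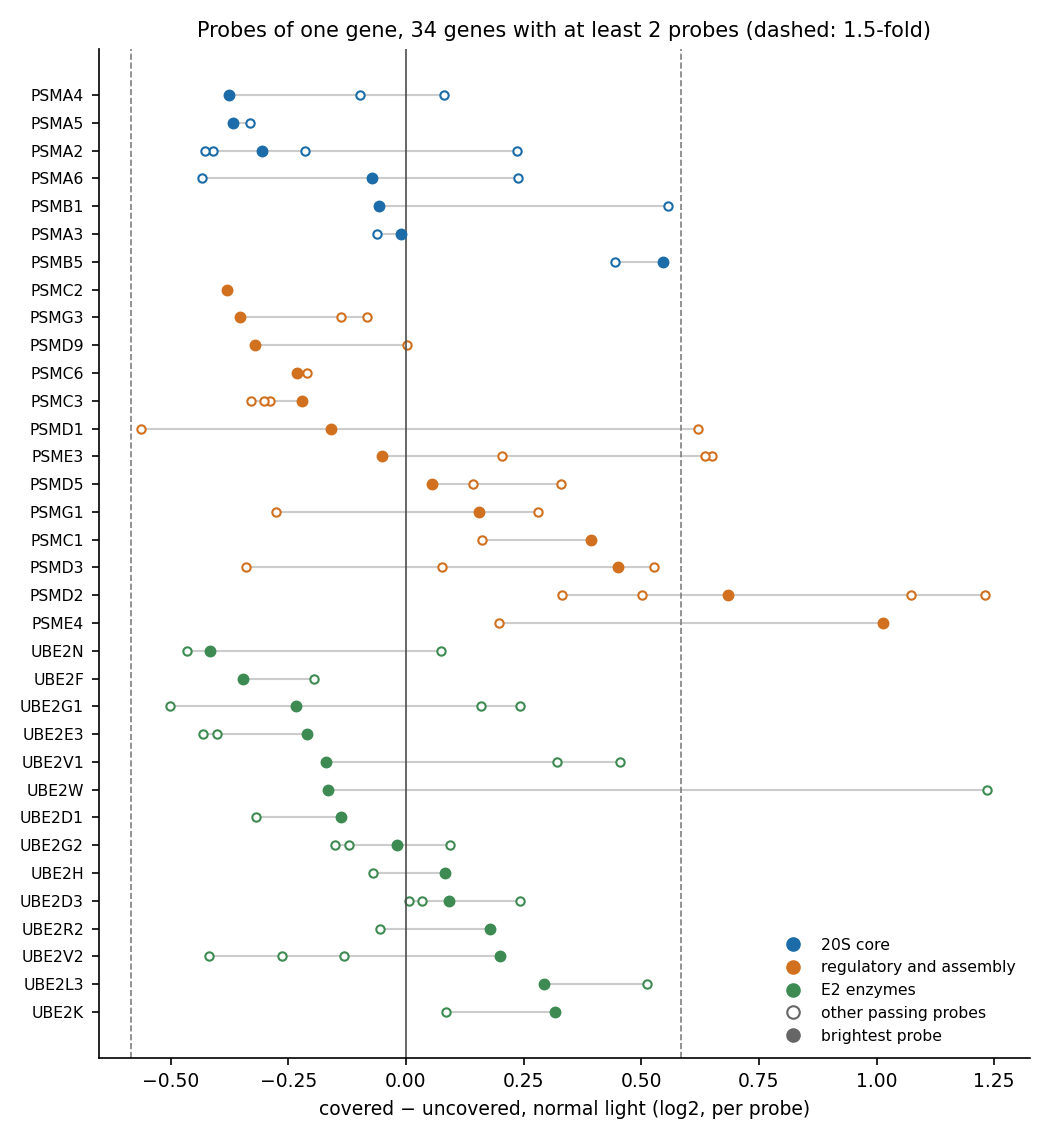
Covered minus uncovered difference under normal light for each passing probe of the 34 members that had at least 2, on a log2 axis. Filled points are the brightest probe, used for the gene, open points the other probes, and dashed lines mark 1.5-fold. All 5 PSMD2 probes lie above 0, those of PSMC2, PSMC3 and PSMC6 lie close together below it, and probes of PSMD1 and UBE2W span it widely.

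Other genes of the pathway were taken from 6 lists with 91 genes, of which 38 were measured. Their medians were 0.02 and 0.03 for goggles in normal and violet light, and 0.01 and 0.05 for light in uncovered and covered eyes. Under normal light 1 of 38 was at least 1.5-fold lower in covered eyes, where 6.53% of all genes were. It was ADRM1, the ubiquitin receptor of the 19S particle (-0.61, and -0.579 after quantile normalization). Under violet light 1 of 38 was at least 1.5-fold higher, where 2.14% of all genes were. It was NSFL1C, which encodes the cofactor p47 of the segregase VCP (0.59, and 0.584 after quantile normalization). After quantile normalization ADRM1 and NSFL1C thus both fell just short of the 1.5-fold limit of 0.585. NSFL1C was also higher under normal light (0.56), with levels of -0.09 and -0.21 in the uncovered pools and 0.47 and 0.38 in the covered ones of normal and violet light. It has 1 passing probe. In the pair with undisputed labels it reached 0.69. No listed gene reached 1.5-fold for light in either eye. VCP itself differed by -0.25 and 0.03, and the transcription factors NFE2L1 and NFE2L2, which control proteasome genes, by 0.16 and 0.05 and by -0.33 and -0.16.

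Under the value table's labels the same pairs of arrays answer other questions. The goggle difference under normal light becomes normal minus violet light in covered eyes, so that PSME4 and PSMD2 would be lower under violet light in covered eyes, at -1.01 and -0.68. Goggle differences under normal light are then 0.03 for PSME4 and 0.00 for PSMD2. The class medians for goggles under normal light become -0.10 for the core, -0.08 for the regulatory and assembly genes and -0.04 for the E2 enzymes. The pair with undisputed labels keeps its values, among them PSMD2 at 0.33, PSMC2 at -0.33 and PSMC3 at -0.31. It mixes goggle and light and shares an array with each goggle comparison, so a like sign is no separate evidence. The brightest PSME4 probe was at 0.45 there and its other probe at -0.002, and the mean of the 2 was 0.23. The alpha-ring median was -0.11, with all 7 alpha-ring genes lower in covered eyes in normal light than in uncovered eyes in violet light. Of all genes 45.7% were lower in that pair. PSMA7 (-0.05) and PSMA3 (-0.07) lay near 0, and other probes of PSMA2 (0.03) and PSMA6 (0.04) were higher.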

How the data were processed

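Agilent Feature Extraction 11.5.1.1 made the 1-colour spot values, per the submitters' processing notes. Per the file headers, the processed intensity of a spot is corrected for background and spatial trend and not scaled between arrays. Other deposited columns mark outliers, saturation and signal well above background (another unit, 0 or 1). The authors' deposited value table holds linear intensity values of unstated normalization, with column medians of 218.39, 218.57, 218.35 and 218.67. It runs in the scanner values' direction and is not centred per gene.

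Spots of a probe were averaged on the log2 scale (43603 probes) and each array's 75th percentile was subtracted, with R 4.3.3, limma 3.58.1 and Python 3.11.15. Accessions without version were matched to RefSeq genes of assembly GRCg7b, which named 11711 probes with 1 symbol and left 31892 unnamed. The array files name an older build, so no coordinates are printed. Probes had to be well above background on all 4 arrays, with no outlier mark on any (26 had one). This left 35407 probes and 4807 genes, each taken at its brightest passing probe. Thresholds were 1.5-fold and 2-fold (log2 0.585 and 1), with no test. PSMC3IP, a recombination gene, was not counted. The steps were tested on simulated data. Named were the 3 highest and 3 lowest members per class and pair of pools, members and pathway genes past 1.5-fold, and unmatched members. The members and lists were chosen with earlier results of these data known. Alternatives were quantile, cyclic loess and median scaling, normexp correction (offset 50, on median signals), the mean of probes, both filters on dim probes, the value table and its labels.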

Additional observations from a re-analysis of the deposited data

How the results depend on the processing

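The medians of the 3 classes relative to all genes, and the counts of members past 1.5-fold and 2-fold, were recomputed for 5 pairs of pools under 9 alternatives. Of 315 values, 290 moved by less than the SD between probes of one gene or stayed within 1.5 times the count. Without a filter on dim probes none of 35 values moved further. All 43 members had already passed that filter, so their counts had little or no room to change. Goggles under normal light gave 1 member 2-fold higher (PSME4), and 0 after quantile normalization, cyclic loess, median scaling, normexp correction, the mean of probes, in brighter probes, in the value table and with its labels. The 2 members 1.5-fold higher became 1 with median scaling or brighter probes and 0 in the value table or with its labels. Quantile normalization and cyclic loess gave 3. Median scaling put the median over all genes at -0.30 and gave 10 members 1.5-fold lower instead of 0, and 1 instead of 0 for violet light in uncovered eyes. It shifts all genes of a pair alike, and the share of all genes past 1.5-fold under it is not given here. These counts are therefore no result about the members. For violet light in covered eyes, 3 members were 1.5-fold lower in the value table and 2 with its labels, 1 of them 2-fold, instead of 0. With its labels this is the goggle pair of normal light reversed, where 12.1% and 4.68% of all genes were past those limits. For the value table the share of all genes is not given here. Relative to all genes, the core median for goggles under normal light was -0.21, and -0.017 in the value table. Its median for light in covered eyes was 0.07, and 0.21 with the table's labels, where the E2 median of 0.01 became 0.10. The regulatory and assembly medians in the value table were -0.075 for goggles under violet light, -0.11 for light in uncovered and -0.028 for light in covered eyes, instead of 0.08, 0.04 and 0.05. With the table's labels the first pair were -0.040 and -0.084. Median scaling could not move a class median, since a constant per array cancels in a median relative to all genes. Those values are among the 290. Under the 7 alternatives other than the value table and its labels, no class median moved past the median SD between probes of one member. That SD ran from 0.05 to 0.17 over the pairs, so the limit differed by pair. Within its limit, the core median for goggles under normal light still became -0.34 with normexp correction. The cause of these changes was not tested. Naming by a gene name column was not run, since the files have none. No paired analysis was possible because each group is 1 pool with no replicate number. Dim probes limit what can be said of PSME4 and UBE2J1.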
